A study of Mus musculus with 16 samples.

Results

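The replication-dependent histone genes were taken as all genes whose GRCm38 symbol, looked up from the Ensembl gene ID of each counted row, begins with Hist and continues with a cluster number from 1 to 4 and the letter h. The rule found 68 of the 46078 genes in the count tables. They comprised 6 genes of the linker histone H1, 20 of H2A, 17 of H2B, 12 of H3 and 13 of H4, among them 3 annotated pseudogenes (Hist3h2bb-ps, Hist1h2aj and Hist1h2al). The Hist1 cluster held 54 of them, with its 52 coding genes at chr13:21715763-23934851. Of the rest, 10 lay at chr3:96219865-96270132 (Hist2), 3 on chromosome 11 with the 2 coding ones at chr11:58948920-58956830 (Hist3), and 1 at chr6:136801553-136804415 (Hist4), all in GRCm38. Hist1h2bm and Hist1h2bh, which the annotation also places on chromosome 13, were not analysed here.

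The study concerns competition between Apc-mutant and wild-type cells of the mouse intestinal epithelium, grown as C57BL6 organoids from crypts in Matrigel with EGF, R-spondin and Noggin. RNA was sequenced from 16 libraries in 6 groups. In 12 of them the treatment label is medium conditioned by Apc-mutant cells: genotype label Apc mutant with titles APCCM and genotype label WT with titles WTCM, each with 3 libraries on day 4 and 3 on day 2. Untreated libraries, all of day 2, comprised 2 labelled APC (genotype Apc mutant) and 2 labelled WT. Per the labels' protocols, wild-type organoids came from Lgr5-EGFP-IRES-CreERT2 mice and carried mCherry, and Apc-/- organoids came from Lgr5-EGFP-IRES-CreERT2;Apcfl/fl crypts recombined in culture with 4OH-tamoxifen and carried Venus. A Villin-CreERT2.Apcfl/fl line is also named there, and the labels do not say from which of the lines a library was made. Lgr5-EGFP-IRES-CreERT2 acts in the stem cells that express Lgr5, and Villin-CreERT2 throughout the epithelium. The protocol also describes medium from cultures of either genotype, so APCCM and WTCM could refer to the cells themselves or to where their medium came from. Nothing in the labels says that replicates were separate cultures or animals, so the p-values below measure only the spread between these libraries, which may be technical.

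These genes encode the bulk of the histones that package newly copied DNA, and their RNA is made mainly while a cell is in S phase. Linker H1 sits on the DNA that enters and leaves the nucleosome, and H2A, H2B, H3 and H4 form its core. Unlike other messenger RNAs, the typical product of these genes has no poly(A) tail: it ends shortly after a stem-loop, which is bound by the stem-loop binding protein Slbp, and the end is cut by the U7 small ribonucleoprotein, of which Lsm10 and Lsm11 are parts. In the gut epithelium, cycling cells lie in the crypt, among the stem and transit-amplifying cells, and the Wnt pathway that Apc restrains keeps them dividing.

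The stem-loop is shown because it sets these RNAs apart from those with a poly(A) tail. A 16-base pattern (GGC, any base, CTT, any base, T, any base, AG, any base, GCC), searched on the sense strand of the GENCODE M21 transcripts (GRCm38), was found in 42 of the 68 genes and in 7 of 21834 other protein-coding genes (0.0321%). Among the 26 without a match, 11 had a transcript annotated no further than the stop codon and 3 were the pseudogenes. Below, the 16 bases of the pattern are in capitals with 5 bases on each side, in DNA letters, 5′ to 3′. Hist1h1c and Hist1h1e encode linker histones, Hist1h3e and Hist1h3g encode H3, Hist1h4d, Hist2h4 and Hist1h4a encode H4, and Hist2h2ac encodes H2A.
Hist1h1c: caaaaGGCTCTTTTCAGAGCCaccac
Hist1h1e: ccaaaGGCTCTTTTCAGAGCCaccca
Hist2h2ac: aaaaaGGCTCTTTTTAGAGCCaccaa
Hist1h3e: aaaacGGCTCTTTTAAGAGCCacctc
Hist1h3g: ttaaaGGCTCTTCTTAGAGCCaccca
Hist1h4d: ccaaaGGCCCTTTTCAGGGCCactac
Hist2h4: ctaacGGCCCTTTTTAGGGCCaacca
Hist1h4a: ccaaaGGCCCTTCTCAGGGCCgccca
The form of Hist1h1c was shared by 24 genes, that of Hist1h4d by 7, that of Hist1h3e by 6 and that of Hist2h4 by 2, and those of Hist2h2ac, Hist1h3g and Hist1h4a occurred once each. The stem opened with GGCC in all 10 H4 genes with a match, and with GGCT in the 32 genes of the other 4 types. A poly(A) hexamer (AATAAA or ATTAAA in the last 50 annotated bases) was present in 17 of the 68 genes, against 78.0% of other protein-coding genes. For Hist1h1c the annotation runs 840 bases past the stem-loop, for Hist1h1e 1153, for Hist1h4d 770 and for Hist2h2ac 57.

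Promoters are shown for the linker histone genes because those genes moved apart from one another between days. RefSeq windows (GRCm38.p6, 250 bases before to 50 after the start) were matched by symbol for 59 of the 68 genes, and 4 motifs were searched on both strands: the CCAAT box, the TATA box as TATAAA, the octamer ATTTGCAT and the H1 box AAACACA. The 250 bases before the start are printed for 4 linker histone genes, and for Hist1h2ac, whose window reaches from its own start just into its H2B neighbour Hist1h2bc, which runs the other way. Capitals mark the motif matches, also where they read on the opposite strand (ATTGG, ATGCAAAT), and the marked matches do not overlap one another.
Hist1h1c, chr13:23738557-23738806, plus strand: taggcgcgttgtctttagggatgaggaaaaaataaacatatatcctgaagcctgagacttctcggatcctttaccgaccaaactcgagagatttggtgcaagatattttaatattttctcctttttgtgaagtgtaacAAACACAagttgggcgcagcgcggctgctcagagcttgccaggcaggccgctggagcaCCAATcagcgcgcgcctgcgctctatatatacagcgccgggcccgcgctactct
Hist1h1e, chr13:23622559-23622808, minus strand: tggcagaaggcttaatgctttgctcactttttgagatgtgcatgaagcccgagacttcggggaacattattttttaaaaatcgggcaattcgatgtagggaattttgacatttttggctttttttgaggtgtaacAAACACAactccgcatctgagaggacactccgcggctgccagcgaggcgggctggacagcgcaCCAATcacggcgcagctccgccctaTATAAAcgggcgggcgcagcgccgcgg
Hist1h1b, chr13:21780626-21780875, minus strand: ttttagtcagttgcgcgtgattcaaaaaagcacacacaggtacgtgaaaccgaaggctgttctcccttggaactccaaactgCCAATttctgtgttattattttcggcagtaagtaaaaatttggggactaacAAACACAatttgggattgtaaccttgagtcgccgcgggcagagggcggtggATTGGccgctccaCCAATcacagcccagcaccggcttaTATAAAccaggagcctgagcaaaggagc
Hist1h1a, chr13:23763418-23763667, plus strand: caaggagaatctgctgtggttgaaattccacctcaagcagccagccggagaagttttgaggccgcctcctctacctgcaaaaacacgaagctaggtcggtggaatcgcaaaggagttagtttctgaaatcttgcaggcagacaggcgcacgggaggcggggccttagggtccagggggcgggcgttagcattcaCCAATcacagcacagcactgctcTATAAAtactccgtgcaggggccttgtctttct
Hist1h2ac, chr13:23683960-23684209, minus strand: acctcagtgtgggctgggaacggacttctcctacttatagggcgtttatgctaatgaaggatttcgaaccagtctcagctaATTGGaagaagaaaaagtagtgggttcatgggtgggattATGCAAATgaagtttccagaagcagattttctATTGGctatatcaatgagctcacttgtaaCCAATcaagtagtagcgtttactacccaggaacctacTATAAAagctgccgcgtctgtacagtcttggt
AAACACA occurred in 5 of the 6 H1 windows (83.3%), all but that of Hist1h1a, against 7.18% of all 32851 promoter windows. ATTTGCAT was found in 7 of 17 H2A and 5 of 14 H2B windows and in no window of H1, H3 or H4, against 1.74% of all windows. CCAAT was in 50 of 59 histone windows (84.7%, against 37.4% of all windows): in every H1, H2A, H2B and H3 window and in 3 of the 12 H4 windows. TATAAA was in 35 of 59 (59.3%, against 13.6%). Windows of divergent partners, such as Hist1h2ah and Hist1h2bk, overlap, so the same match can be counted for both an H2A and an H2B gene. Hist1h1c and Hist1h1e share AAACACA and CCAAT with Hist1h1b, and a match of these letters says nothing of what binds there.

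Depth and the share of RNAs without a poly(A) tail differed between the treatments. Reads counted to genes ranged between 17986815 and 29152692 for the conditioned medium libraries and between 8325979 and 13027701 for the untreated ones. The long noncoding gene Gm26917 took 7.68% to 11.5% of the counts in conditioned medium and 0.00387% to 0.00952% in untreated libraries. Levels are given as counts per 1000000 reads counted to genes (CPM). The 12 named RNAs that have no poly(A) tail (7SK, 7SL, RNase P and MRP RNAs and others) summed to 5676 to 11485 CPM in conditioned medium and 2.41 to 16.3 CPM in untreated libraries. The labels' protocols give 1 ribosome-depleted total RNA preparation for all libraries. The labels were checked against Wnt targets and Apc itself. Notum, a Wnt target that cells without Apc express strongly, had 0.128 to 0.925 CPM in the 12 conditioned medium libraries, whichever genotype they are labelled with, while it had 321 and 392 CPM in the untreated APC libraries, against 0.367 and 0.240 CPM in untreated WT. Nkd1, another Wnt target, had 1.11 to 4.41 CPM in conditioned medium, and 547 and 668 CPM in untreated APC, against 2.02 and 1.44 in untreated WT. By both genes the conditioned medium libraries of either label lay with untreated WT. By the level of Apc they did not: it had 224 to 267 CPM in conditioned medium and 310 and 273 CPM in untreated APC, against 77.7 and 83.8 CPM in untreated WT, and counts over the whole gene do not tell whether the floxed part was lost. The conditioned medium libraries are therefore called by their labels, APCCM and WTCM, and no direction within conditioned medium is tied to a genotype. Sums of 16 intestinal epithelial markers were 10529 to 12039 CPM in conditioned medium, 4386 and 4673 in untreated APC (Krt20 at 0) and 12799 and 12936 in untreated WT. Markers of fibroblasts summed to at most 2.99 CPM, of immune cells to at most 9.75 and of endothelial and neural cells to at most 5.13 in any library.

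Histone RNA was about 100 times more abundant, as a share of counted reads, in conditioned medium libraries than in untreated ones. On day 2 the summed histone level was 4883, 5522 and 4869 CPM in APCCM libraries, against 51.6 and 53.2 CPM in untreated APC libraries. It was 5711, 4964 and 4976 CPM in WTCM libraries, against 50.5 and 50.9 CPM in untreated WT libraries. The groups stood far apart, by 97.1-fold for APCCM over APC and 103-fold for WTCM over WT. Genes that the cell uses in S phase did not show such a gap: 30 S phase and DNA replication genes summed to 2145 to 2786 CPM in conditioned medium and 3349 to 3833 CPM in untreated libraries. APCCM and untreated APC also differed in Wnt targets: on day 2 Notum had 0.592 to 0.723 CPM in APCCM, against 321 and 392 in untreated APC. Apc itself had 242 to 267 CPM, against 310 and 273. Whether these 2 groups hold cells of the same genotype is therefore not known. The treatment and the difference in RNAs without a poly(A) tail also go together in these libraries, so these cannot be told apart. The histone values of conditioned medium and untreated libraries are set side by side only as measurements.

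**Figure D1:**
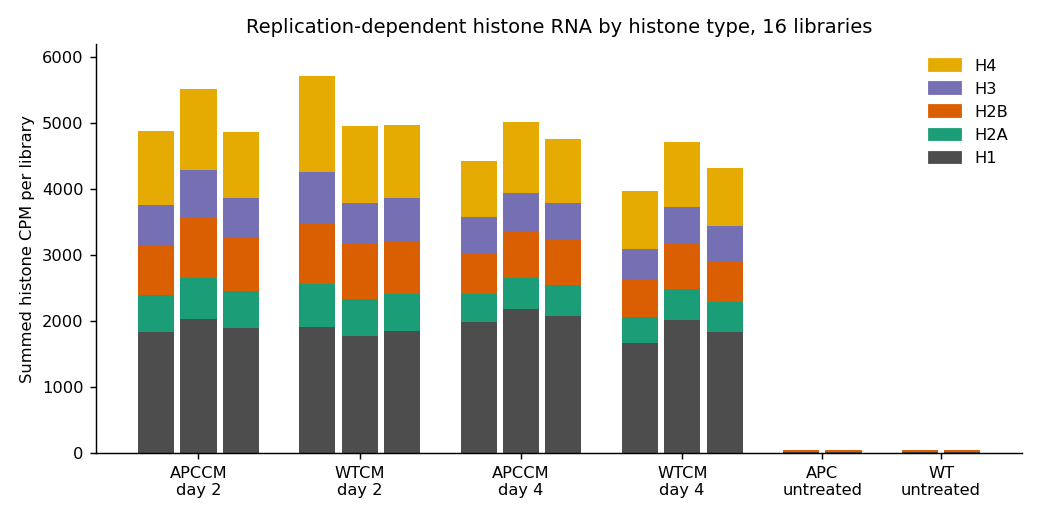
Summed CPM of the 68 replication-dependent histone genes in each of the 16 libraries (1 bar each, y axis from 0), stacked by histone type and grouped by label, day and treatment. The 12 conditioned medium bars lie between 3976 and 5711 CPM, and the 4 untreated bars, at 50.5 to 53.2 CPM, are barely visible.

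Of the 60 histone genes that passed the filter on low counts, 59 were higher in APCCM than in untreated APC and 58 were higher in WTCM than in untreated WT (quasi-likelihood test of edgeR, Benjamini-Hochberg adjusted p under 0.05). Of all 16510 genes tested, 38.3% and 29.5% were called higher in these comparisons, 36.0% and 26.9% lower, and 74.4% and 56.4% in either direction. Most genes had next to no reads in untreated libraries: 28 of the 68 had 0 counts in all 4, and 21 of those had at least 1 CPM in conditioned medium. Hist1h4d, the H4 gene with the highest level per coding length in conditioned medium, had 278, 304 and 258 CPM in APCCM and 344, 289 and 288 CPM in WTCM on day 2, and 0 counts in the untreated libraries of both labels. With 3 counts per group as the floor, it was at least 2291-fold higher in APCCM than in APC and at least 1978-fold higher in WTCM than in WT. The H2A gene Hist1h2ak was at least 976-fold and 789-fold higher in the same comparisons, and Hist2h2ac at least 592-fold and 505-fold. Hist1h1e had 5 counts in untreated APC, which gives a ratio of 1996 for APCCM over APC with a 95% counting interval of 855 to 6149. Over the 60 genes, with those at 0 set to their bound, the median ratio was 375 for APCCM over APC and 378 for WTCM over WT. Of the 60, 31 had 0 counts and 18 had 1 to 3 in untreated APC, and 29 and 21 in untreated WT. Such genes passed the filter on low counts only through conditioned medium. The calls and median ratios over the 60 were therefore largely set by that filter and are no separate support for the gap.

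Hist1h1c, Hist1h2bc, Hist2h2be, Hist3h2a, Hist1h4i and Hist1h2be were the exceptions: each averaged at least 1 CPM in untreated libraries. Together they held 94.5% of the 2267 histone counts of the untreated libraries, against 13.8% of those in conditioned medium. Among the other 62 genes the highest untreated mean was 0.258 CPM. Hist1h1c (chr13:23738808-23740367, plus strand), a linker histone gene, had 258 and 308 counts in untreated APC and 205 and 159 in untreated WT. Hist1h2bc (chr13:23684199-23692908, plus strand), an H2B gene, had 151 and 176 counts in APC and 175 and 139 in WT. These 2 genes alone gave 930 and 641 of the 2267 counts, and their levels were still far below those in conditioned medium, where Hist1h1c was 21.6-fold (95% counting interval 19.9 to 23.5) higher in APCCM than in APC and Hist1h2bc 5.63-fold (5.03 to 6.31). Of the 6, 4 had the stem-loop, each with more than 60 annotated bases beyond it, and 5 had a poly(A) hexamer at the annotated end, with a median exon length of 1853 bases. Of the other 62, 38 had the stem-loop, 18 of them with more than 60 bases beyond it, 12 had the hexamer, and the median exon length was 514 bases.

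**Figure D2:**
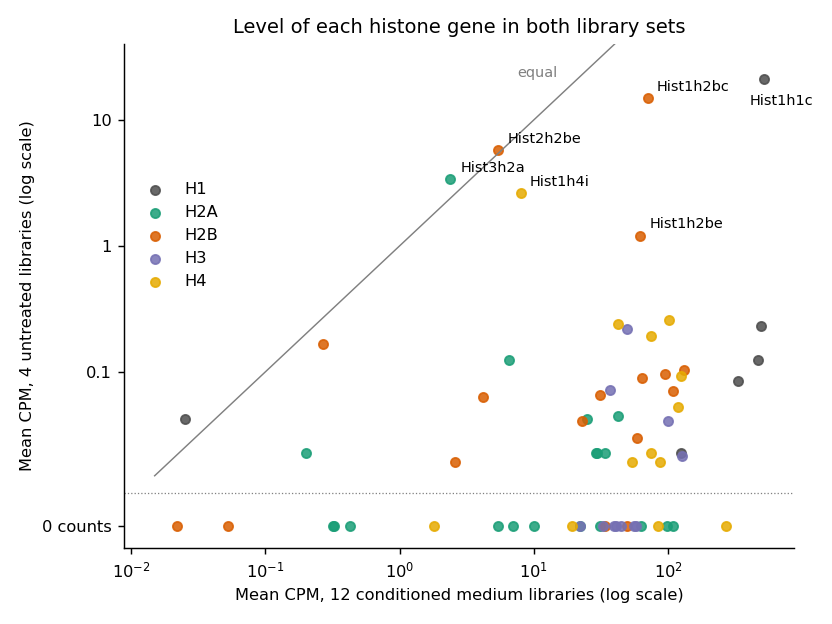
Mean CPM of each histone gene over the 12 conditioned medium libraries (x, log scale) and over the 4 untreated libraries (y, log scale, genes with 0 counts drawn on the lowest line), coloured by histone type, with a grey line of equal levels. The 6 labelled genes lie at or above 1 CPM in untreated libraries, all others at or below 0.258 CPM, and Hist2h2be and Hist3h2a lie close to the line.

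Hist2h2be (H2B) and Hist3h2a (H2A) had levels in untreated libraries close to those in conditioned medium. Hist2h2be had 6.15, 4.23 and 6.95 CPM in APCCM on day 2, against 4.31 and 5.30 CPM in untreated APC, and 4.61, 5.86 and 6.95 CPM in WTCM, against 6.69 and 6.85 CPM in untreated WT. Both pairs of groups overlapped. Its ratio was 1.21 for APCCM over APC (95% counting interval 0.978 to 1.5) and 0.852 for WTCM over WT, and the fitted log2 fold changes were 0.64 (SE 0.21, edgeR adjusted p = 0.0082) and 0.01 (adjusted p = 0.99), the first kept in 8 of 10 other settings. The fitted values exceed the CPM ratios because the TMM factors, which scale each library to the bulk of its genes, were 0.898 to 0.973 in conditioned medium and 1.10 to 1.26 in untreated libraries. Hist3h2a had 2.90, 1.83 and 3.40 CPM in APCCM, against 5.35 and 3.99 CPM in untreated APC, and 1.83, 2.93 and 2.1 CPM in WTCM, against 2.11 and 2.04 CPM in untreated WT. It was lower in every APCCM library than in both APC libraries, while WTCM and WT overlapped, and neither fold change passed the test (log2 fold change -0.39 and 0.36, adjusted p 0.14 and 0.33). Without TMM, 58 histone genes were called higher and 1 lower in APCCM than in APC, and Hist3h2a was the only tested member with a CPM ratio under 1 there.

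Neighbours that share a start region differed in untreated libraries. In 13 divergent pairs the starts of an H2A and an H2B gene lie within 500 bases of each other on opposite strands. Hist2h2ac (chr3:96220361-96220880, minus strand) and Hist2h2be (chr3:96221119-96223738, plus strand) start 238 bases apart, and had 62.4 and 5.43 CPM in conditioned medium but 0 and 249 counts over the untreated libraries. The pseudogene Hist3h2bb-ps and Hist3h2a start 172 bases apart and had 2.59 and 2.36 CPM in conditioned medium, and 1 and 154 counts in untreated libraries. Hist1h2ac and Hist1h2bc, whose shared start region is printed above, had 42.0 and 70.9 CPM in conditioned medium, and 2 and 641 counts in untreated libraries. In all 3 pairs 1 partner held nearly all of the untreated counts, and for Hist2h2be and Hist3h2a it was the partner with the lower level in conditioned medium. The partners in the other 10 pairs had few reads there, such as 0 and 0 for Hist1h2ak and Hist1h2bn, and 1 and 4 for Hist1h2ae and Hist1h2bg.

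Between the untreated groups, 4 of the 60 genes were called, 2 higher and 2 lower in APC than in WT, where 62.5% of all genes tested were called (32.4% higher and 30.1% lower). All 4 belong to the 6 genes with reads. Hist1h2be had 1.72 and 2.07 CPM in APC, against 0.550 and 0.480 CPM in WT (log2 fold change 1.69, SE 0.58, edgeR adjusted p = 0.013), and Hist3h2a, with the values above, had a log2 fold change of 0.99 (SE 0.32, adjusted p = 0.0087). Hist1h2bc had 13.0 and 13.5 CPM in APC, against 16 and 16.7 CPM in WT (log2 fold change -0.47, SE 0.12, adjusted p = 0.001), and Hist2h2be had a log2 fold change of -0.65 (SE 0.25, adjusted p = 0.023). The groups did not overlap in any of the 4, which with 2 libraries each says little: 17 of the 60 genes had no overlap. Most of the 60 had 3 counts or fewer per untreated group, and the share of all genes without overlap is not given here. Hist1h2be rests on 47 and 10 counts per group, and its call was kept in 6 of 9 other settings, those of Hist3h2a and Hist2h2be in 7 and 5. Without TMM the split was 3 higher and 1 lower. Leaving out replicate 4 of APC, replicate 4 of WT or replicate 5 of WT left 2 calls, and leaving out replicate 5 of APC left 3.

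Within conditioned medium all 5 histone types were detected at high levels. Of the histone counts in APCCM libraries of day 2, H1 made up 37.9%, H4 21.9%, H2B 16.1%, H3 12.8% and H2A 11.3%. Per kilobase of coding sequence, the summed level in the same libraries was highest for H4 at 3603 ± 366 CPM per kb, then H1 at 2950 ± 152 (SD, n = 3), H2B at 2160, H3 at 1598 and H2A at 1474. H4 and H1 were in the other order in APCCM on day 4, at 3134 ± 355 and 3191 ± 147 CPM per kb, a difference smaller than the SD. Reads with several alignments were not counted to genes. By share of counts the types rank as they do by unique sequence, given in the next paragraph. The shares and levels by type are therefore uncertain, and the part of the lost reads in them was not tested. The Hist1 cluster gave 89.2% to 91.3% of the histone counts in the 4 groups' means, Hist2 7.26% to 9.03%, Hist4 1.39% to 1.71% and Hist3 0.0915% to 0.131%.

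Within each type a few genes held much of the level. Over the 12 conditioned medium libraries, Hist1h4d led H4 with 877 CPM per coding kb and a share of 25.6% of the type, ahead of Hist1h4h at 401, with a median H4 gene at 243. Hist1h1c and Hist1h1d led H1 at 812 and 742 CPM per coding kb, and the 3 highest H1 genes made up 76.6% of the type. Hist1h2bb led H2B at 346 and Hist2h2bb followed at 289, against a median of 110. The first H3 genes were Hist1h3e at 309 and Hist1h3f at 246 (median 105), and the first H2A genes Hist1h2ak at 280 and Hist1h2ab at 252. These ranks are uncertain where copies are nearly identical, because reads with several alignments were not counted to genes (26.5% to 33.3% of reads in conditioned medium and 36.5% to 38.9% in untreated libraries): of the 50-base stretches of a member's exons, a median of 98.9% occurred in no other transcript for H1, 60.5% for H4, 50.3% for H2B, 38.0% for H3 and 26.8% for H2A. For 5 genes no stretch was unique, and 2 of these, Hist2h2aa1 and Hist2h3c1, had 0 counts in all 16 libraries. The others, Hist2h2bb, Hist2h3b and Hist2h2aa2, had 28588, 11808 and 1730 counts in conditioned medium. Reads were thus counted to genes that this measure calls not unique, and it does not tell which reads were lost. The values of Hist2h2bb and Hist2h3b are uncertain wherever they are named.

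Many core histone genes were lower on day 4 than on day 2 in both labels, and 2 linker histone genes were higher. The conditioned medium libraries of day 2 have titles of another form (as in Day2_APCCM1) than those of day 4 (as in Day4_APCCM_rep1). Any difference in handling between these sets cannot be told apart from day. In APCCM, 28 of the 60 genes were lower on day 4 than on day 2 and 2 were higher, where 11.7% of all genes tested were lower, 12.2% higher and 23.9% called in all. In WTCM, 44 were lower and 2 higher, where 11.6% of all genes were lower, 12.5% higher and 24.1% called in all. The shares of histone genes called lower, 46.7% and 73.3%, were above those of all genes, and the median log2 fold change over the 60 was -0.26 and -0.36, against 0.00 to 0.03 over all genes in the comparisons made. All 28 that fell in APCCM also fell in WTCM, 16 fell in WTCM alone, and 16 were lower in neither. Markers of intestinal cell types also moved between days, 5 of 16 higher and 3 lower in APCCM and 5 higher and 2 lower in WTCM. Muc2 (goblet cells) averaged 946 CPM in APCCM on day 4, against 701 on day 2, and 728 CPM in WTCM on day 4, against 325 on day 2. Chgb (enteroendocrine cells) averaged 777 CPM in APCCM on day 4, against 627 on day 2, and 546 CPM in WTCM on day 4, against 350 on day 2. In APCCM, Olfm4 (stem cells) averaged 1311 CPM on day 4, against 1903 on day 2, and Lyz1 (Paneth cells) 1387, against 2237. Krt20 was also called between days in both labels, and Dclk1 in WTCM, with values not given here. The day values of Olfm4 and Lyz1 in WTCM and of the other markers, among them Lgr5 (stem cells), are not given either. No shift between cell types is therefore read from the markers named. The labels did not share these changes in full: the label by day interaction called 4 of the 16 markers, against 2.13% of all genes. These were Muc2, Lyz1, Olfm4 and Chgb, all with a lower change in APCCM than in WTCM. The part of the markers in the histone values was not tested. In these bulk libraries, fewer cells in S phase and less histone RNA per cell cannot be told apart. The makeup of the libraries also moved with day: Gm26917 took 9.41% to 11.5% of counts in conditioned medium on day 2 and 7.68% to 8.88% on day 4. Of 7 tested RNAs without a poly(A) tail, 2 were lower on day 4 in APCCM and none in WTCM. With Gm26917 left out, 29 histone genes were lower in APCCM and 44 in WTCM. The part of these RNAs in the histone values was not tested.

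The falls covered all 4 core types and all 4 clusters. In APCCM, 8 of 17 tested H2A genes, 10 of 14 H2B, 3 of 11 H3 and 6 of 13 H4 fell, and in WTCM 9, 12, 9 and 12 of them. By cluster, 23 of 49 Hist1, 4 of 8 Hist2 and 1 of 2 Hist3 genes fell in APCCM, and 36, 6 and 1 in WTCM, where the single Hist4 gene fell too. The summed H2A level was 434, 484 and 466 CPM in APCCM on day 4, against 549, 622 and 554 CPM on day 2 (ratio 0.802), and 398, 471 and 442 CPM in WTCM on day 4, against 646, 555 and 563 CPM on day 2 (ratio 0.743). For H2B the ratios were 0.799 and 0.719 and for H3 0.872 and 0.772, and for these 3 types no day 4 library reached a day 2 library of its label. The H4 ratio was 0.870 in APCCM, where the days overlapped, and 0.736 in WTCM, where they did not.

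Among genes past the test, no fall exceeded 0.77 on the log2 scale. The pseudogenes Hist1h2aj (-1.24 in APCCM, adjusted p = 0.068) and Hist1h2al (-0.81 in WTCM, adjusted p = 0.23), both under 1 CPM in each library, had lower values that did not pass. Hist2h2ac, an H2A gene whose stem-loop form occurred once, had 51.1, 51.3 and 52.6 CPM in APCCM on day 4, against 66.6, 80.2 and 70.4 CPM on day 2 (log2 fold change -0.46, SE 0.08, edgeR adjusted p = 0.00017). In WTCM it had 44.6, 48.5 and 48.2 CPM on day 4, against 89.6, 72.8 and 72.6 CPM on day 2 (log2 fold change -0.70, SE 0.08, adjusted p = 1.3e-06). All 6 day 4 libraries lay below all 6 day 2 libraries for this gene. Hist2h2ab, the H2A gene with the steepest fall among coding members in APCCM, had 7.56, 7.47 and 7.62 CPM in APCCM on day 4, against 12.5, 13.6 and 11 CPM on day 2 (log2 fold change -0.69, SE 0.12, adjusted p = 0.0002), and a log2 fold change of -0.58 (SE 0.12, adjusted p = 0.001) in WTCM. Again no day 4 library reached a day 2 library of its label. The steepest fall past the test in WTCM was that of the H4 gene Hist1h4b, with 51.2, 57.2 and 54.2 CPM on day 4, against 113, 89.0 and 81.2 CPM on day 2 (log2 fold change -0.77, SE 0.09, adjusted p = 2e-06). The H4 gene Hist2h4 fell to 79.5, 84.9 and 72.4 CPM on day 4 in WTCM, against 150, 118 and 107 CPM on day 2 (log2 fold change -0.63, SE 0.10, adjusted p = 5e-05). For both H4 genes the days stood apart, and replicate 1 of WTCM day 2 was the highest library.

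Other members among the steepest were Hist1h2ae, Hist1h2bl, Hist1h4i and Hist1h4j in APCCM, with log2 fold changes of -0.50, -0.41, -0.56 and -0.43, and Hist1h2bj, Hist1h2bk and Hist2h2bb in WTCM, with -0.63, -0.57 and -0.57. The pseudogene Hist3h2bb-ps fell by 0.70 in APCCM and 0.68 in WTCM on the log2 scale (adjusted p 0.034 and 0.043), at levels of a few CPM. Hist1h3e, the H3 gene with the highest level, was among the 16 that were lower in neither label, with 115, 129 and 113 CPM in APCCM on day 4, against 125, 146 and 123 CPM on day 2, which overlap. The number of falls depends on single libraries: it was 13 in APCCM without replicate 2 of APCCM day 2 and 16 without replicate 1 of APCCM day 4, and 28 in WTCM without replicate 1 of WTCM day 2.

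**Figure D3:**
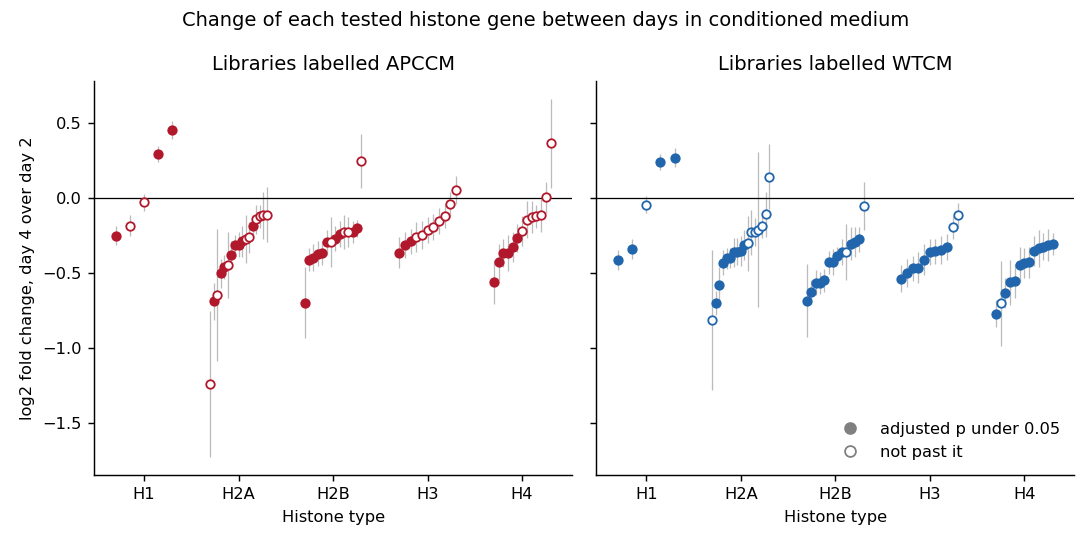
Log2 fold change of day 4 over day 2 for each of the 60 tested histone genes (points, with bars for the SE), by histone type, in APCCM libraries (left) and WTCM libraries (right), with filled points for adjusted p under 0.05 in edgeR's quasi-likelihood test. Most core histone points lie below 0, the filled ones by up to 0.77, the lowest open ones are pseudogenes of H2A at -1.24 (APCCM) and -0.81 (WTCM), and the only filled points above 0 are 2 genes of H1.

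Hist1h1c and Hist1h1e, both linker histone genes with the H1 box, were the only members higher on day 4 in either label. Hist1h1c had 581, 619 and 599 CPM in APCCM on day 4, against 482, 521 and 489 CPM on day 2 (log2 fold change 0.29, SE 0.05, edgeR adjusted p = 0.00023). In WTCM it had 477, 562 and 515 CPM on day 4, against 466, 429 and 453 CPM on day 2 (log2 fold change 0.24, SE 0.05, adjusted p = 0.0019). Every day 4 library was above every day 2 library of its label. Hist1h1e (chr13:23620629-23622558, minus strand) had 513, 586 and 547 CPM in APCCM on day 4, against 377, 439 and 404 CPM on day 2 (log2 fold change 0.45, SE 0.06, adjusted p = 8.2e-06). It had 443, 534 and 477 CPM in WTCM on day 4, against 425, 405 and 404 CPM on day 2 (log2 fold change 0.27, SE 0.06, adjusted p = 0.0027). Here too the days did not overlap. Both calls were kept in all 13 other settings tried for each label.

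The remaining linker histone genes fell or did not pass the test. Hist1h1b (chr13:21779883-21780625, minus strand) had 303, 335 and 319 CPM in APCCM on day 4, against 352, 390 and 361 CPM on day 2 (log2 fold change -0.18, SE 0.07, adjusted p = 0.055), and fell in WTCM to 244, 306 and 284 CPM on day 4, against 376, 344 and 359 CPM on day 2 (log2 fold change -0.34, SE 0.07, adjusted p = 0.00079). Hist1h1a (chr13:23763666-23764406, plus strand), whose window lacked the H1 box, fell in both labels: 104, 115 and 109 CPM in APCCM on day 4, against 131, 140 and 126 CPM on day 2 (log2 fold change -0.25, SE 0.07, adjusted p = 0.0074), and a log2 fold change of -0.42 (adjusted p = 6.6e-05) in WTCM. Hist1h1d had log2 fold changes of -0.03 in APCCM and -0.04 in WTCM (adjusted p 0.76 and 0.62). Among the 4 tested H1 genes with the H1 box, Hist1h1c and Hist1h1e rose, Hist1h1b fell in WTCM, and Hist1h1d passed neither test.

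The replication-independent linker histone gene H1f0, known from cells that leave the cycle and not itself a member, rose with them. It had 517, 502 and 541 CPM in APCCM on day 4, against 342, 379 and 388 CPM on day 2 (log2 fold change 0.51, SE 0.05, adjusted p = 6.2e-08), and 465, 514 and 495 CPM in WTCM on day 4, against 366, 384 and 400 CPM on day 2 (log2 fold change 0.39, adjusted p = 4.2e-06).

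**Figure D4:**
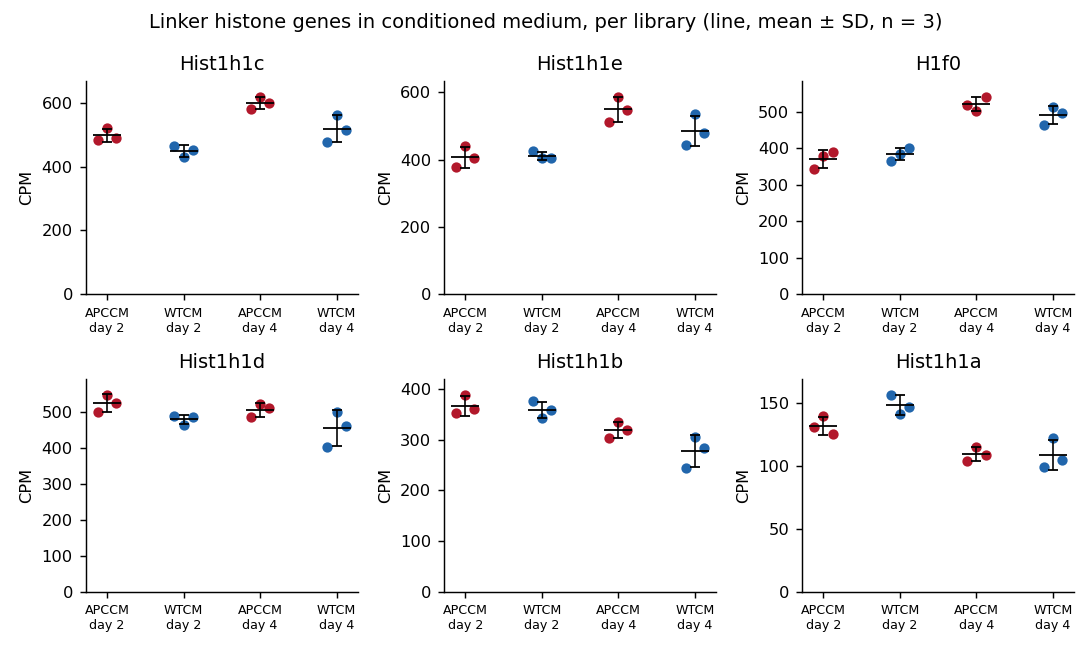
CPM of 6 linker histone genes in the 12 conditioned medium libraries (points; line and bar, mean and SD, n = 3; y axes from 0), by label and day. Hist1h1c, Hist1h1e and H1f0 are higher on day 4 than on day 2 in both labels, Hist1h1a is lower in both, Hist1h1b is lower in WTCM by the test, and Hist1h1d passed no test of day.

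Within the total, the 2 rising genes and the rest moved in opposite directions. The split follows the day 4 calls in these same libraries, so the rise of the pair follows from that choice and is no separate support. Hist1h1c and Hist1h1e together had 1094, 1205 and 1146 CPM in APCCM on day 4, against 860, 960 and 893 CPM on day 2 (ratio 1.27), and 921, 1096 and 993 CPM in WTCM on day 4, against 891, 834 and 857 CPM on day 2 (ratio 1.17). The other 66 genes had 3341, 3814 and 3617 CPM in APCCM on day 4, against 4023, 4562 and 3976 CPM on day 2 (ratio 0.858), and 3056, 3625 and 3325 CPM in WTCM on day 4, against 4821, 4130 and 4119 CPM on day 2 (ratio 0.766). In both labels neither sum overlapped between days. The sum of all members was 4435, 5019 and 4763 CPM in APCCM on day 4, which overlapped the 4883, 5522 and 4869 CPM of day 2 (ratio 0.931), and 3976, 4721 and 4318 CPM in WTCM on day 4, below all of the 5711, 4964 and 4976 CPM of day 2 (ratio 0.832). H1 made up 43.4% to 44.8% of histone counts in APCCM on day 4, against 36.9% to 39.1% on day 2, and 41.9% to 42.9% in WTCM on day 4, against 33.5% to 37.2% on day 2. No test was made of these sums.

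APCCM and WTCM libraries of the same day differed little. On day 2 the summed level averaged 5091 ± 373 CPM in APCCM and 5217 ± 428 CPM in WTCM, and on day 4 it averaged 4739 ± 293 CPM in APCCM and 4338 ± 373 CPM in WTCM (SD, n = 3 each), with overlapping libraries on both days. On day 2, 4 of the 60 genes were lower in APCCM than in WTCM and none was higher, where 16.7% of all genes were called (8.54% higher and 8.15% lower), so the share called, 6.67%, was below that of all genes. On day 4, 3 were higher and none lower, where 15.6% were called (7.83% higher and 7.80% lower). The median log2 fold change over the 60 was -0.07 on day 2 and 0.06 on day 4, and the first turned to 0.02 without replicate 1 of WTCM day 2. At an unadjusted p under 0.05 there were 10 and 9 genes, and DESeq2 called 3 lower on day 2 and 3 higher on day 4. The share of all genes at an unadjusted p under 0.05 is not given here, so counts at that threshold are not set against it.

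The 4 genes lower on day 2 were Hist1h4h, Hist2h3b, Hist1h1a and Hist1h2bc. Hist1h4h, an H4 gene, had 127, 128 and 103 CPM in APCCM, against 180, 145 and 131 CPM in WTCM (log2 fold change -0.39, SE 0.12, edgeR adjusted p = 0.034). Hist1h1a had 131, 140 and 126 CPM in APCCM, against 157, 141 and 147 CPM in WTCM (log2 fold change -0.20, SE 0.07, adjusted p = 0.04). Both had no overlap, though the closest APCCM and WTCM libraries of Hist1h1a differed by under 2 CPM. Hist1h2bc had 73.0, 79.1 and 72.5 CPM in APCCM, against 87.4, 79.4 and 81.2 CPM in WTCM (log2 fold change -0.17, SE 0.06, adjusted p = 0.038), and Hist2h3b, an H3 gene, had a log2 fold change of -0.32 (SE 0.09, adjusted p = 0.02) with overlapping groups. Hist2h3b had no unique 50-base stretch, so its level is uncertain. On this day no call was left without replicate 3 of APCCM day 2 or without replicate 1 of WTCM day 2 (4 and 5 genes at an unadjusted p under 0.05), 1 was left without replicate 1 of APCCM day 2, and 7 were made without its replicate 2.

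On day 4 the calls fell on other genes. Hist1h1c was higher in APCCM, with the values given above for the day comparison (log2 fold change 0.17, SE 0.05, adjusted p = 0.027). Hist1h3d, an H3 gene, had 33.0, 35.8 and 34.8 CPM in APCCM, against 24.8, 29.9 and 29.3 CPM in WTCM (log2 fold change 0.26, SE 0.09, adjusted p = 0.048), and the H2B gene Hist1h2bp had 4.45, 6.09 and 4.63 CPM in APCCM, against 2.92, 3.09 and 3.53 CPM in WTCM (log2 fold change 0.61, SE 0.18, adjusted p = 0.021). Each stood apart between the labels. Without replicate 2 of APCCM day 4 or without replicate 1 of WTCM day 4 no gene was called (4 and 3 at an unadjusted p under 0.05). It dropped to 1 call without replicate 3 of APCCM day 4, and without replicate 2 or 3 of WTCM day 4. The 12 RNAs without a poly(A) tail also differed between labels: on day 4, when the histone calls were higher in APCCM, 4 of the 7 tested were lower there, among them Rmrp (log2 fold change -0.85), and on day 2, when the histone calls were lower in APCCM, 3 were lower too, among them Rn7sk (-0.47). Of all genes tested, 7.80% were lower in APCCM on day 4 and 8.15% on day 2. The part of these RNAs in the histone values was not tested.

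Whether the change between days differed between the labels was tested as an interaction. With edgeR's quasi-likelihood test none of the 60 genes was called, where 2.13% of all genes were, and DESeq2 called none. At an unadjusted p under 0.05 there were 14 with edgeR and 10 with DESeq2. The share of all genes at that threshold is not given here, so these counts are not set against it. The interaction term was above 0, a smaller fall in APCCM, for 52 of the 60, with a median of 0.13 on the log2 scale. The genes share their libraries, so this count is no test. The median was 0.03 without replicate 1 of WTCM day 2, 0.08 without replicate 3 of APCCM day 2 and 0.21 without its replicate 2. The wider set of falls in WTCM was therefore not shown to differ from that in APCCM for any single gene.

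Genes that process histone RNA and supply histones fell along with the core histone genes. Of 24 such genes, all tested, 12 fell and none rose in APCCM (median log2 fold change -0.15, against 11.7% of all genes falling), and 15 fell and none rose in WTCM (median -0.19, against 11.6%). Slbp, which binds the stem-loops printed above, had 53.8, 53.9 and 56.6 CPM in APCCM on day 4, against 61.7, 64.9 and 62.7 CPM on day 2 (log2 fold change -0.18, SE 0.05, edgeR adjusted p = 0.012), and 45.0, 50.4 and 49.3 CPM in WTCM on day 4, against 59.1, 60.6 and 58.3 CPM on day 2 (log2 fold change -0.26, SE 0.05, adjusted p = 0.00059). In neither label did the days overlap. Zfp473, a zinc finger protein that in human cells joins the U7 particle to the stem-loop complex, fell furthest, by 1.32 in APCCM and 1.03 in WTCM on the log2 scale, at levels of 1.31 to 2.31 CPM on day 4 and 3.19 to 4.69 CPM on day 2. Ncbp2, a subunit of the cap-binding complex, fell by 0.61 and 0.55, the cyclin gene Ccne2, whose product acts with Cdk2 at the start of S phase, by 0.60 and 0.76, and the histone chaperone gene Asf1b by 0.38 and 0.57. Lsm11, of the U7 particle, fell by 0.38 and 0.46. Between labels the list had 1 gene higher and 1 lower in APCCM on day 2, and 2 higher and 1 lower on day 4. Of all genes tested, 8.54% were higher and 8.15% lower on day 2, and 7.83% and 7.80% on day 4.

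**Figure D5:**
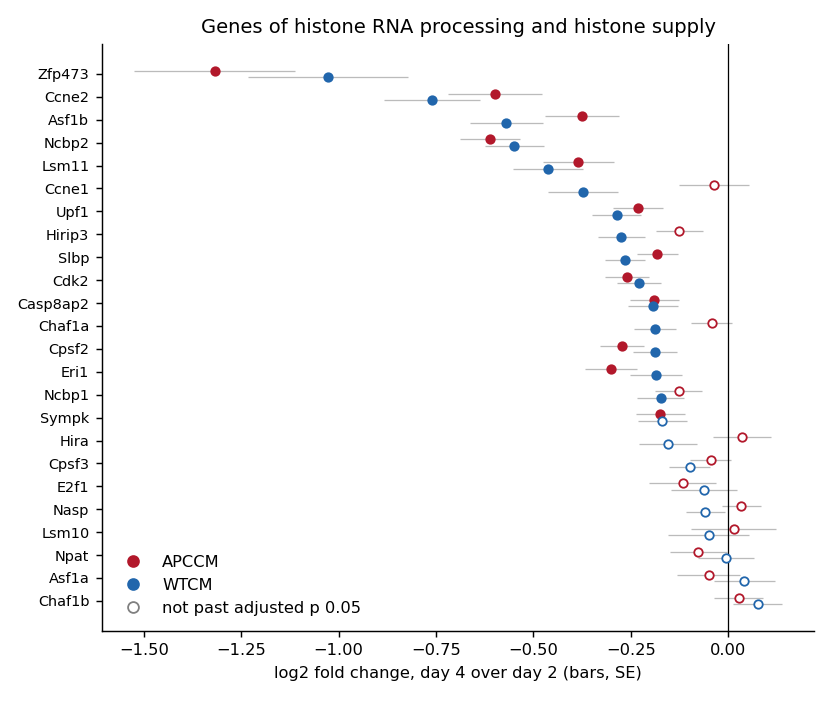
Log2 fold change of day 4 over day 2 (x, bars for the SE) for 24 genes of histone RNA processing and histone supply (y), in APCCM (red) and WTCM (blue) libraries, with open points where the adjusted p in edgeR's quasi-likelihood test was not under 0.05. Filled points all lie below 0, with Zfp473 furthest at -1.32 and -1.03.

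Of 30 DNA replication genes, 6 fell and 1 rose in APCCM and 8 fell and 1 rose in WTCM, with medians of -0.11 in both, where 11.7% and 11.6% of all genes fell. Cdca7, a gene whose RNA is known to peak as cells enter S phase, fell by 0.55 in APCCM and 0.42 in WTCM, and Rrm2, a subunit of ribonucleotide reductase, by 0.26 and 0.32 on the log2 scale. Between labels, 6 genes of this list were higher in APCCM and none lower on day 2, and 7 higher and none lower on day 4, where 8.54% and 7.83% of all genes were higher. Rrm2 had 89.7, 100 and 107 CPM in APCCM on day 2, against 76.7, 81.9 and 86.8 CPM in WTCM (log2 fold change 0.25, SE 0.06, adjusted p = 0.0065), and a log2 fold change of 0.31 on day 4 (adjusted p = 0.00088). Gins3 and Cdc6, which act in assembling the replication machinery, were higher on day 2 by log2 fold changes of 0.43 and 0.28, and Tk1 and Pole on day 4 by 0.28 and 0.19.

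Histone variant genes that are expressed outside S phase, and whose RNA carries a poly(A) tail, split in both directions. Of 11 such genes, 9 were tested: 3 rose and 2 fell in APCCM, and 2 rose and 3 fell in WTCM. Of all genes tested, 12.2% rose and 11.7% fell in APCCM, and 12.5% and 11.6% in WTCM. Besides H1f0, H3f3b, which encodes the replacement form of H3, rose by log2 fold changes of 0.41 and 0.33. Cenpa, the centromeric H3 variant, fell by 0.43 and 0.38 and H2afz, an H2A variant, by 0.24 and 0.32. Their summed level was 1181 to 1469 CPM in conditioned medium and 1469 to 1621 CPM in untreated libraries, where the sums of the replication-dependent genes differed by about 100 times.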

How the data were processed

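The authors deposited 1 table of raw counts per gene for each of the 16 libraries, keyed by Ensembl gene ID. The submitters' processing notes name HISAT2 2.1.0, HTSeq 0.6.1p1, Trimmomatic 0.36 and the build GRCm38. Strand setting and annotation release were not given in the sources used here. Counts for reads with several alignments, with no feature or not aligned stand in lines of their own and entered neither library sizes nor tests, so near-identical histone copies are undercounted to an unknown extent. Symbols were matched for 45229 IDs (98.2%).

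Groups follow the labels, which differ from the series' design text on which days and media were sampled. CPM are counts per 1000000 reads counted to genes. Genes that passed edgeR's expression filter (16510) were fitted over all 6 groups with edgeR 4.0.16 (TMM factors, quasi-likelihood test; R 4.3.3, limma 3.58.1), Benjamini-Hochberg adjusted over all genes tested, and the code was tested on simulated data. DESeq2 1.42.0, its size factors, no TMM, no filter, the conditioned medium libraries alone, a replicate block, Gm26917 left out and each library left out in turn were the alternatives. Untreated and conditioned medium groups have 2 and 3 libraries each, the biological coefficient of variation was 5.96% with 10 residual degrees of freedom, and intervals (95%, exact) and floors (3 counts over the group) cover counting error only. Folds against a group at 0 are bounds.

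Members and lists were chosen with earlier results of these data known. Most genes named in the text were taken from the 3 genes of each type with the highest level per exon length, up to 8 per comparison within conditioned medium with the largest change among those called without overlap, the 10 highest in untreated libraries, partners of divergent pairs, and up to 4 called genes per other list, with Slbp. Not all genes so taken are described, and Hist1h3c, Hist1h4k and Hist2h3c2 are among those left out. Hist2h3b, Hist1h3f, Hist1h1d, Lsm11 and Asf1b, and every linker histone gene, were named after their values were seen where the rule did not take them. The 8 members that did not pass the filter were Hist1h1t, Hist1h2aa, Hist1h2ao, Hist1h2ba, Hist1h2br, Hist2h2aa1, Hist2h3c1 and Hist3h2ba.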

Additional observations from a re-analysis of the deposited data

How the results depend on the processing

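Genes named above for a call kept their direction in the alternatives tried, and some summary values near no change did not: without replicate 1 of WTCM day 2 the day 2 label median over the 60 genes was 0.02, against -0.07, and with TMM-scaled totals the untreated APC sum was 0.919 times that of WT, against 1.03, and the H1 sum in WTCM on day 4 was 1.02 times that of day 2, against 0.998. Without TMM, the day 2 comparison of labels called 2 histone genes and the day 4 comparison 5, against 4 and 3, and without the filter on low counts they called 9 and 7, and the interaction 6. Leaving out 1 library at a time gave 0 to 7 calls between labels on day 2 and 0 to 2 on day 4, 15 to 30 calls between days in APCCM and 30 to 46 in WTCM, 0 to 2 for the interaction, 58 to 59 and 57 to 58 for conditioned medium over untreated in APC and WT, and 2 to 3 between the untreated groups. Without Gm26917 in the totals, the mean histone sums were 5658 CPM (APCCM day 2), 5842 (WTCM day 2), 5145 (APCCM day 4) and 4743 (WTCM day 4), and with TMM-scaled totals the untreated sums were 41.9 CPM (APC) and 45.6 (WT). Libraries of conditioned medium share replicate numbers, and the deviations of same-numbered libraries correlated at -0.0492 to 0.0529 over 18 pairs of libraries. Between APCCM day 2 and day 4 the same-numbered pairs had 0.0456, 0.0529 and 0.0497. The differently numbered pairs of these groups lay below, at -0.0648 to 0.0192. With 3 libraries per group this check cannot decide whether the numbers pair libraries. With the replicate block the interaction called 1 gene, the labels 5 on day 2 and 4 on day 4, and the days 34 in APCCM and 48 in WTCM. DESeq2 called 26 genes between days in APCCM and 41 in WTCM. At 0 counts over a group the untreated depth sets only a bound, and at up to 3 counts a ratio has a wide interval.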
